A study of Mus musculus with 4 samples.

Results

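The 42 collagen genes were the genes whose platform symbol is Col, digits, a, digits, out of 18193 genes measured on the array. They were read by 82 probe sets, and for the 27 genes with more than 1 the probe set of highest mean level was used. By known class, 11 encode chains of fibrillar collagens, 9 chains of network collagens and 22 chains of other types. The samples were SVEC4-10 cells, a mouse endothelial line from lymph node that was transformed with SV40, grown in the same serum-containing medium. There were 4 groups with 1 array each, and each array held RNA pooled from 3 biological replicates. The untreated group carried no vector, the vector group the insert-free lentiviral vector pLENTI6/Block-iT, and the remaining groups that vector with a short hairpin RNA, targeting Mical2 in 1 group and Mical3 in the other. Blasticidin selection is stated for the transduced cells. The study asked which transcripts change when MICAL2, an enzyme that oxidises filamentous actin, is reduced.

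Values are log2 levels as the authors deposited them after RMA normalization, and differences are differences of log2 levels. With 1 pooled array per group there is no spread between replicates, so no difference was tested and p-values are absent. A gene is called higher or lower when the difference was 1 or more in size (2-fold) and the higher level reached a floor of 5.41, which is the table's median. For a hairpin array both controls, vector and untreated, had to be passed in 1 direction. As a lower bound of the error, a difference read by 1 probe set had a standard deviation of 0.24 to 0.36, depending on the arrays compared, taken from the gap between probe sets of the same gene over 5198 genes. These arrays read RNA from whole cultures, so fewer cells that express a gene and less RNA per cell cannot be told apart.

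The array medians lay between 5.40 and 5.44. Neither targeted transcript was 2-fold lower than both controls on the array of its own hairpin. Mical2 was read at 5.33 and 5.60 on the untreated array by its 2 probe sets, 4.64 and 5.14 on vector, 5.53 and 5.53 on the array labelled Mical2 and 6.0 and 6.08 on that labelled Mical3. Mical3 stood at 7.39, 7.29, 6.83 and 7.24 in that order. The Mical2 transcript was thus lowest on the vector array, and so each hairpin array is called "the array labelled" with the name of its target. Of 12 endothelial markers 8 were below the floor on all 4 arrays, among them Pecam1, Cdh5, Tek, Tie1 and Vwf, while Flt1 lay between 7.70 and 7.76 and Eng between 7.31 and 7.58. The Y-linked genes Eif2s3y, Kdm5d and Uty were at 8.75, 7.15 and 7.18 on the array labelled Mical3 and at most 6.04, 4.51 and 4.58 on the other arrays. Eif2s3y also differed among those, with 5.03 on untreated, 3.14 on vector and 6.04 on the array labelled Mical2, where it was called higher against both controls.

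Collagens are trimers of chains that wind into a triple helix and are secreted into the extracellular matrix. Fibrillar collagens build the cross-striated fibrils of connective tissue and are made mainly by fibroblasts and other mesenchymal cells. Network collagens form sheets, with type IV as the scaffold of every basement membrane, including the layer under the endothelium, and type VIII as a short-chain collagen of vessel walls and of the cornea. Some types, such as III and XII, are trimers of a single gene's product, while types I, IV, V, VI and VIII have chains from several genes.

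The collagen genes with the widest differences between arrays are shown here by the 250 bases before their annotated start, from RefSeq on GRCm38.p6. Capitals mark matches on either strand to the TATA element TATAAA, to the CCAAT box, to the GC box GGGCGG, to the AP-1 element TGANTCA or to a CArG box. The stretches are chr6:4505368-4505617 on the plus strand, chr1:45311288-45311537 on the plus strand, chr16:57754738-57754987 on the minus strand and chr4:126286544-126286793 on the plus strand, each 5′ to 3′.
Col1a2: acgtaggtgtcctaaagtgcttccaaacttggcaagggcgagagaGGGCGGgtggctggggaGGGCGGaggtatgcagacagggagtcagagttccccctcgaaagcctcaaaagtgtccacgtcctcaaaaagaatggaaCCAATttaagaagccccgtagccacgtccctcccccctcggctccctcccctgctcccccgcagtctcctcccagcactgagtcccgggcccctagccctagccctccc
Col3a1: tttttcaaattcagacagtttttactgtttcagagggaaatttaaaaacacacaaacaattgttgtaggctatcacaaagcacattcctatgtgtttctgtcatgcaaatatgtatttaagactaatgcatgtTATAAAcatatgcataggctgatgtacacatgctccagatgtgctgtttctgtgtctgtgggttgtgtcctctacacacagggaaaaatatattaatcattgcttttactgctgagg
Col8a1: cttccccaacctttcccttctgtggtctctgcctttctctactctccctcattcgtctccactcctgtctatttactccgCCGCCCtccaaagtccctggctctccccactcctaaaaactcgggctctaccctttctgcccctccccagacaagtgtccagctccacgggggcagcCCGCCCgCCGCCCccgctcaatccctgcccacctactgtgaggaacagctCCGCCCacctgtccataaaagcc
Col8a2: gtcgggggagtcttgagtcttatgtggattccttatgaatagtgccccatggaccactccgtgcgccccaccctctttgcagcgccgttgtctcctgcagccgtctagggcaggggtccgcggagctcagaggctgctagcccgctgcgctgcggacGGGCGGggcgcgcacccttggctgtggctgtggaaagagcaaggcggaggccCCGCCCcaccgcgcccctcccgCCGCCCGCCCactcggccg
The Col1a2 stretch held 2 GGGCGG and 1 CCAAT, the Col3a1 stretch 1 TATAAA at 35.2% G and C, and the Col8a1 and Col8a2 stretches 4 GGGCGG each, 2 of which overlap in Col8a2. The TATAAA of Col3a1 lay 117 to 112 bases before the annotated start. Windows were found for 33 of the 42 genes, 36 windows in all. Of the 23 windows, from 20 genes that reached the floor on any array, 15 held GGGCGG, 10 CCAAT, 1 TATAAA, 1 TGANTCA and 0 a CArG box. Over all 32851 windows of the same length the shares were 32.7% for GGGCGG, 33.8% for CCAAT, 12.4% for TATAAA, 6.75% for TGANTCA and 1.47% for a CArG box. Unlike the 23, these windows were not limited to genes that reached the floor. Of the 36 collagen windows, 21 held GGGCGG, 13 CCAAT, 5 TATAAA, 1 TGANTCA and 1 a CArG box. The median share of G and C was 59.6% in the 23 windows and 52.4% over all, and its part in the motif shares was not tested. The short motifs can overlap each other and match by letters alone.

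Col4a1 and Col4a2 lie next to each other on opposite strands, and their annotated transcripts overlap head to head, Col4a2 starting on the plus strand at the first and Col4a1 on the minus strand at the last of the 22 bases chr8:11312805-11312826 (printed from the plus strand), shown because their chains share a trimer and their levels are compared below.
Col4a1/Col4a2: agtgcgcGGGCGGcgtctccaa
The capitals mark GGGCGG. In the RefSeq gene order 7 pairs of the collagen genes were direct neighbours, and the pairs in which both genes reached the floor were Col3a1 with Col5a2, Col6a1 with Col6a2, Col4a1 with Col4a2 and Col4a5 with Col4a6.

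Of the 42 genes, 25 reached the floor on at least 1 array and 20 on all 4. By class the 25 were 7 fibrillar, 6 network and 12 other genes. The other 17 stayed between 2.8 and 5.3 on every array, near background, and are Col2a1, Col11a1, Col11a2, Col24a1, Col4a3, Col4a4, Col10a1, Col6a4, Col6a5, Col9a2, Col14a1, Col19a1, Col13a1, Col17a1, Col23a1, Col15a1 and Col26a1. The gene just below the floor was Col2a1 at 5.30 and the gene just above it Col22a1 at 5.58. Over the 4 arrays 16 of the 25 genes spanned at least 1 on the log2 scale.

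**Figure D1:**
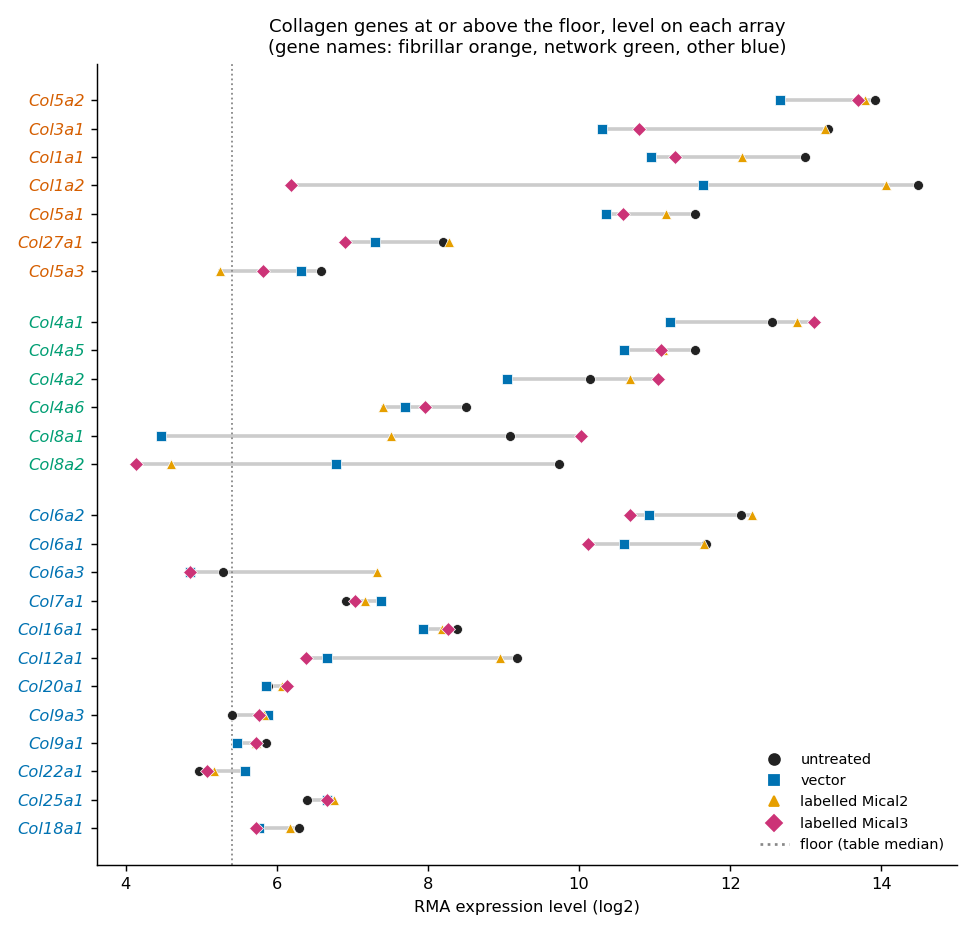
RMA level (log2, horizontal axis) of the 25 collagen genes that reached the floor, with 1 point per array and a grey bar from the lowest to the highest array; the dotted line is the floor of 5.41. Col1a2 runs from 6.19 to 14.49, and in most fibrillar genes the vector and labelled Mical3 points lie to the left of the untreated and labelled Mical2 points.

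The insert-free vector was set against untreated cells to measure the background of transduction and selection, which cannot be told apart from any other difference between these cultures. On the vector array 12 collagen genes were called lower and none higher. They were the fibrillar genes Col1a1, Col1a2, Col3a1, Col5a1 and Col5a2, the network genes Col4a1, Col4a2, Col8a1 and Col8a2, the type VI genes Col6a1 and Col6a2, and Col12a1. Of the 42 genes 24 reached the floor on at least 1 of these arrays, and the 12 are counted among these 24, while over all 11849 genes at that floor 2.57% were called lower and 3.26% higher. Over the 24 collagen genes with a mean level at or above the floor, the median difference was -1.02, against 0.03 over the 11607 genes at that mean, and over all 42 it was -0.14. In 21 of the 24 the vector array was below the untreated array. Beside this shift, 8 fibroblast markers had a median difference of -0.335. That median, unlike the -1.02, includes genes below the floor on all 4 arrays (Thy1, Lum and Fap). Those that reached the floor on any array differed by -4.24 (Pdgfra), -1.84 (Dcn), -0.75 (Fbln2), -0.09 (Pi16) and 0.39 (Dpt). The 8 markers ran from Pdgfra, a receptor of mesenchymal cells, at 6.16 on vector and 10.40 on untreated, to Dpt at 7.05 and 6.66. Dpt, Thy1 and Fap were higher on vector and the rest lower. The part of these markers in the shift was not tested.

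**Figure D2:**
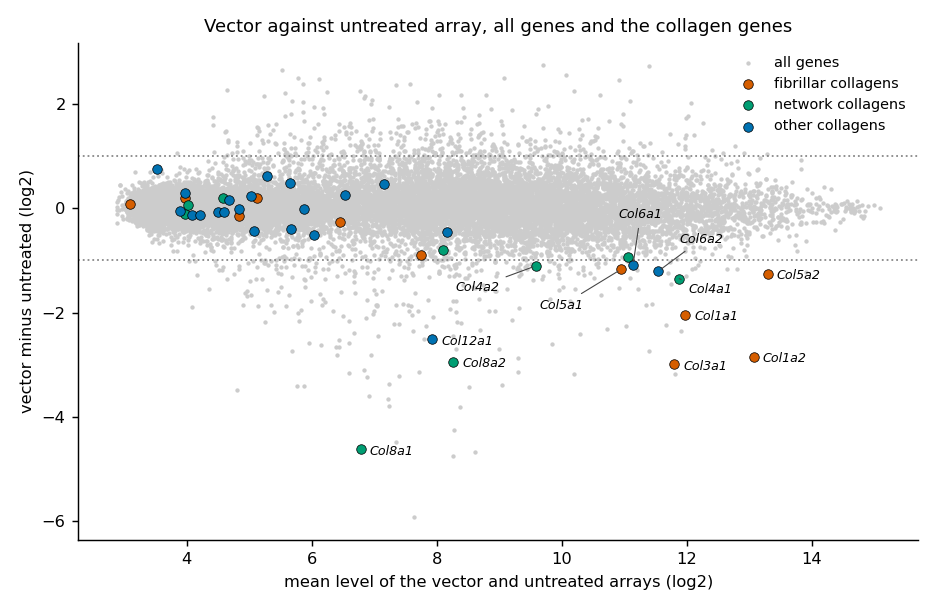
Difference of the vector from the untreated array (log2, vertical axis) against the mean level of both arrays (log2), with every gene in grey and the 42 collagen genes in colour by class; dotted lines mark 2-fold. The 12 named collagen genes lie below the lower line and none lies above the upper line.

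The chains of type I collagen, the main fibril of skin, bone and tendon, did not differ alike, and Col1a2 had the widest range over the arrays of the 42 genes. Col1a2, which encodes the second chain of type I, stood at 14.49 on the untreated array, 11.64 on the vector array, 14.06 on the array labelled Mical2 and 6.19 on that labelled Mical3. It was called lower on the array labelled Mical3, with a difference of -5.45 from vector (43.7-fold) and -8.30 from untreated (315-fold). Of its 2 other probe sets, the brighter gave 13.56, 9.52, 12.98 and 3.75, and the dimmer 6.11, 3.74, 5.50 and 3.94, below the floor on the vector array as well. Col1a1, the partner chain, stood at 12.99, 10.95, 12.15 and 11.27 in the same order. The array labelled Mical3 thus differed from vector by 0.32 in Col1a1 and by -5.45 in Col1a2. Both genes were lower on vector than on untreated, with differences of -2.04 for Col1a1 and -2.85 for Col1a2.

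Col3a1, the chain of type III collagen found with type I in vessel walls, was at 13.29 on the untreated array, 10.30 on the vector array, 13.25 on the array labelled Mical2 and 10.79 on that labelled Mical3. The untreated and labelled Mical2 arrays were thus close (difference -0.04), and the vector array (-2.99 from untreated) and the array labelled Mical3 (-2.50 from untreated) were both well below them. Its neighbour in the genome, Col5a2, read 13.92, 12.66, 13.78 and 13.69, so of the 4 arrays only vector stood apart, 1.03 under the next. Type V collagen is built into type I fibrils and limits their width. Col5a1, which encodes its major chain, read 11.53, 10.36, 11.15 and 10.58. Its other probe sets read 10.56, 8.74, 10.44 and 9.41, and 6.97, 6.66, 6.97 and 6.57, the dimmer with vector only 0.31 below untreated. Col5a3, a minor chain, read 6.58, 6.32, 5.25 and 5.82. Col5a3 was called lower on the array labelled Mical2 (-1.07 from vector, -1.33 from untreated), where it lay below the floor. Its other probe set lay below the floor and differed from vector by 0.45, the opposite sign. Col27a1, a fibrillar chain of cartilage, read 8.20, 7.30, 8.28 and 6.90.

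Col12a1, a fibril-associated collagen on the surface of type I fibrils, was likewise high on the untreated and labelled Mical2 arrays and low on the others, with 9.18 on the untreated array, 6.67 on the vector array, 8.95 on the array labelled Mical2 and 6.38 on that labelled Mical3. A second probe set read 7.02, 6.17, 6.85 and 6.25, a smaller span, and 2 more stayed below the floor. Type VI collagen forms beaded filaments between fibrils and basement membranes from the chains of Col6a1, Col6a2 and Col6a3. Col6a1 read 11.68, 10.59, 11.65 and 10.12, and Col6a2, its neighbour in the genome, 12.14, 10.93, 12.29 and 10.67. Col6a3 differed from them. It was below the floor on the untreated, vector and labelled Mical3 arrays (5.29, 4.85 and 4.85) and at 7.32 on the array labelled Mical2, where it was the 1 collagen gene called higher, by 2.47 over vector and 2.03 over untreated. It was read by 1 probe set.

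The basement membrane genes had another order. Col4a1 stood at 12.55 on the untreated array, 11.20 on the vector array, 12.89 on the array labelled Mical2 and 13.11 on that labelled Mical3. Col4a2 stood at 10.14, 9.04, 10.68 and 11.04. In both genes of this head-to-head pair the vector array was lowest and the array labelled Mical3 highest, 1.91 above vector for Col4a1 and 2.0 for Col4a2. Against the untreated array the differences of the array labelled Mical3 were 0.56 and 0.90, under 2-fold. Col4a5 read 11.53, 10.59, 11.11 and 11.08, and Col4a6, its partner chain and neighbour, 8.50, 7.70, 7.41 and 7.96. Col4a6 was lowest on the array labelled Mical2, and neither gene was called in the comparisons against both controls.

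The type VIII genes spanned more than any gene of type IV and parted from each other. Col8a1 stood at 9.09 on the untreated array, 4.47 on the vector array, 7.51 on the array labelled Mical2 and 10.03 on that labelled Mical3. The vector array was below the floor (-4.62 from untreated), and a second probe set read 8.03, 5.02, 6.57 and 9.08. Col8a2 stood at 9.73, 6.79, 4.60 and 4.14. It was below the floor on both hairpin arrays and was called lower there against both controls, with differences of -2.19 from vector and -5.13 from untreated on the array labelled Mical2 and of -2.65 and -5.59 on the array labelled Mical3. Col8a2 was the 1 collagen gene called against both controls on both hairpin arrays, which share those controls, and it was read by 1 probe set. On the array labelled Mical3, Col8a1 was thus at its highest and Col8a2 below the floor.

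**Figure D3:**
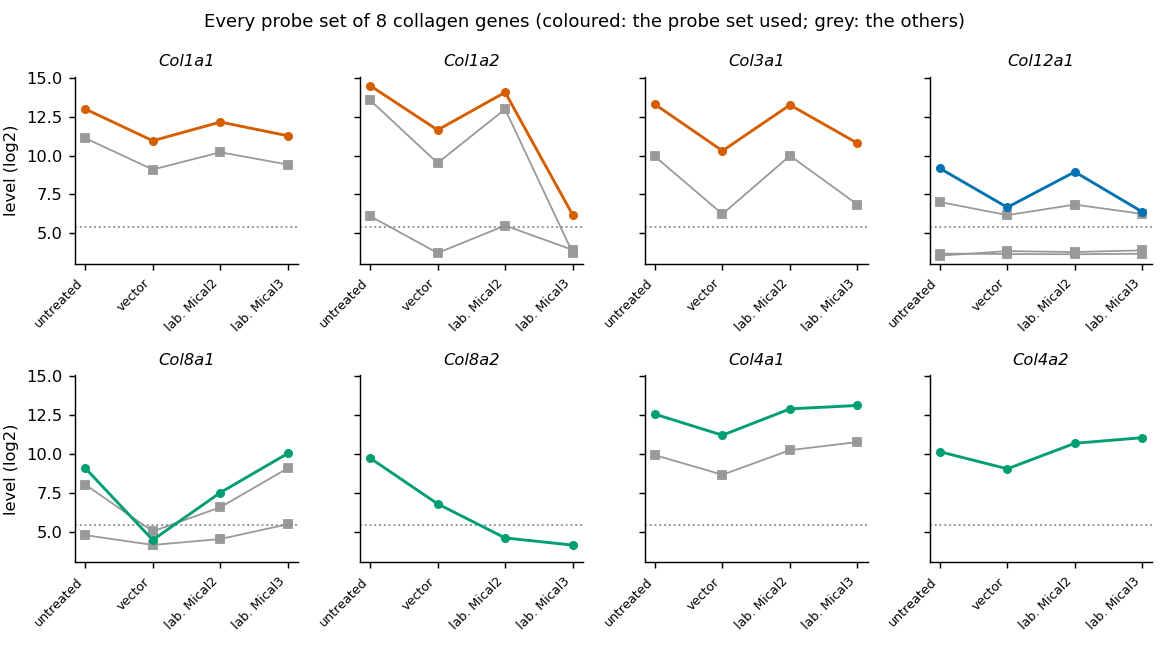
RMA level (log2) on the 4 arrays for every probe set of 8 collagen genes, with the probe set used in colour, the others in grey and the floor as a dotted line. The probe sets of Col1a1, Col3a1 and Col4a1 run in parallel, those of Col1a2 reach 3.75 to 6.19 on the array labelled Mical3, and those of Col12a1 differ in span.

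The remaining genes at the floor spanned less than 2-fold. Col16a1, another fibril-associated collagen, read 8.38 on the untreated array, 7.93 on the vector array, 8.19 on the array labelled Mical2 and 8.27 on that labelled Mical3. Col7a1, the anchoring fibril of the skin's basement membrane, read 6.92, 7.38, 7.17 and 7.03. Col18a1, a multiplexin of basement membranes from which endostatin is cut, read 6.29, 5.77, 6.18 and 5.72. Col25a1, a transmembrane collagen, read 6.40, 6.66, 6.76 and 6.66. Col20a1 read 5.88, 5.86, 6.07 and 6.13, Col9a1 5.86, 5.47, 5.73 and 5.72, Col9a3 5.41, 5.89, 5.83 and 5.77, and Col22a1 4.97, 5.58, 5.17 and 5.08. These 4 genes encode fibril-associated chains and lay near the floor. For each of them, and for Col25a1, at least 1 other probe set stayed below the floor on all 4 arrays.

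Against both controls 3 collagen genes were called on the array labelled Mical2, Col6a3 as higher and Col5a3 and Col8a2 as lower. Over all 12072 genes at the floor 0.977% were called higher and 1.75% lower. The result depends on which control is used. Against the vector array alone, 25 collagen genes reached the floor, of which 11 were called higher and 2 lower. Of all 11990 genes at that floor 3.82% were higher and 6.91% lower. Against the untreated array alone 1 of 24 was called higher (1.44% of 11906 genes at the floor) and 4 lower (2.44%). The 4 were Col5a3, Col4a6, Col8a1 and Col8a2. The 11 higher ones are Col1a1, Col1a2, Col3a1, Col5a2, Col4a1, Col4a2, Col8a1, Col6a1, Col6a2, Col6a3 and Col12a1, and this comparison shares the vector array with that of vector and untreated. Col6a3 reached the floor only on the array labelled Mical2, so against either control it could be called only as higher. It also counts among the 24 genes of the medians that follow. Over the 24 genes with a mean at the floor, the median difference was 0.89 from vector and -0.12 from untreated, against -0.05 and -0.03 over all genes at that mean, and over all 42 it was 0.26 and 0.15.

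Col1a2 and Col8a2 were the 2 collagen genes called lower against both controls on the array labelled Mical3, and none higher, where 2.49% and 1.38% of 12011 genes were. Against the vector array alone 24 collagen genes reached the floor. Col5a2, Col4a1, Col4a2 and Col8a1 were called higher (4.64% of 11914 genes at the floor) and Col1a2 and Col8a2 lower (7.13%). Against the untreated array alone 8 of 23 were called lower (3.72% of 11822 genes at the floor) and none higher (1.95%). These 8 were Col1a1, Col1a2, Col3a1, Col27a1, Col8a2, Col6a1, Col6a2 and Col12a1. No type IV gene was among them. The 7 fibrillar genes at the floor had a median difference of -1.30 from untreated and 0.22 from vector, and the 6 network genes 0.06 and 1.2. Over all 42 genes the medians were -0.05 and 0.04.

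The hairpin arrays carry the same vector backbone and were set against each other. There 7 collagen genes were called lower on the array labelled Mical3 than on the array labelled Mical2 and 1 higher, with 3.81% and 3.72% of 11928 genes. The differences of the lower genes were -7.87 for Col1a2, -2.57 for Col12a1, -2.47 for Col6a3, -2.46 for Col3a1, -1.62 for Col6a2, -1.53 for Col6a1 and -1.38 for Col27a1. Higher was Col8a1, by 2.52. Col6a3 reached the floor only on the array labelled Mical2, so here it could be called only as lower. This comparison shares no array with that of vector and untreated. Col1a2, Col3a1, Col6a1, Col6a2 and Col12a1 were called lower in both pairs, 41.7% of the 12 genes and 71.4% of the 7. Over all genes 69 were lower in both pairs, 22.6% of the 305 and 15.2% of the 454. Col8a1 had opposite signs, -4.62 for vector minus untreated. For Col12a1 both calls rest on 1 probe set and are lost with the mean of its probe sets.

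**Figure D4:**
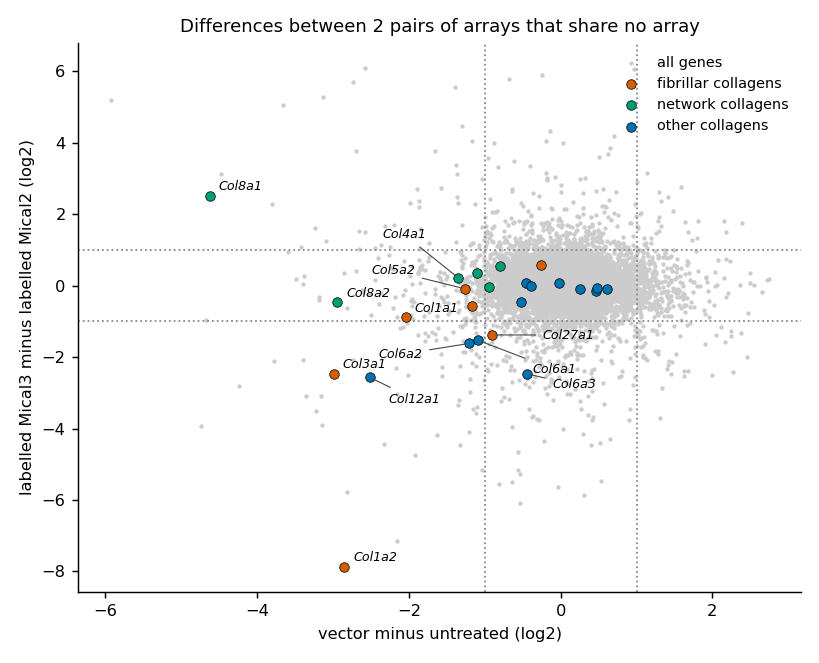
Difference of the array labelled Mical3 from the array labelled Mical2 (log2, vertical axis) against the difference of the vector from the untreated array (log2, horizontal axis), with all genes in grey and the collagen genes at the floor in colour; dotted lines mark 2-fold. Col1a2, Col3a1, Col12a1, Col6a1 and Col6a2 lie in the lower left, Col8a1 in the upper left, and the type IV genes near the middle of the vertical axis.

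Among the 24 genes with a mean at the floor, 13 had both the vector and the labelled Mical3 array below both the untreated and the labelled Mical2 array (13.1% of the 11607 genes at that mean). They were Col1a1, Col1a2, Col3a1, Col5a1, Col5a2, Col27a1, Col4a5, Col6a1, Col6a2, Col6a3, Col12a1, Col9a1 and Col18a1. Col6a3 passed the filter on the mean only through its level on the array labelled Mical2, with the other arrays below the floor, so its place here says nothing. In Col5a2, Col4a5 and Col9a1 the arrays labelled Mical3 and Mical2 differed by under 0.1, less than the spread of probe sets. The vector array was lowest in 11 of the 24 and the array labelled Mical3 in 7, against 26.9% and 26.9% of all genes. The untreated array was highest in 14 of the 24, against 14.9% of all genes.

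Probe sets of the same gene mostly gave the same direction. Of 14 collagen genes with 2 probe sets whose mean reached the floor, 13 had the same sign for vector minus untreated, all but Col20a1, and 14 had it between the hairpin arrays. For the array labelled Mical2, 13 had it against vector, all but Col20a1, and 12 against untreated, all but Col18a1 and Col3a1. For the array labelled Mical3, 13 had it against vector, all but Col12a1, and 14 against untreated. The median gap between the 2 probe sets' differences ran from 0.12 to 0.34, and the widest was 2.03, for Col12a1 (array labelled Mical3 minus untreated).

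The genes that handle collagen were measured as lists, and their counts are read against the shares of all genes at the floor given above. Of 22 genes for modification and folding of procollagen, 20 reached the floor. On the vector against the untreated array 2 were called lower and none was called higher (2.57% and 3.26% of all genes). The 2 were P4ha1, a prolyl hydroxylase (9.60 against 10.60), and the isomerase gene Fkbp14 (8.10 against 9.15). The median difference over the 22 was -0.31. Sec24d (-0.99), P3h1 (-0.95), Creb3l1 and Serpinh1 (-0.92 each) fell just short of a call. P4ha3, Colgalt2 and P3h3 were higher on vector and the rest lower. None was called on the array labelled Mical2 against both controls. On the array labelled Mical3 P4ha3 was called lower (6.16, with 8.01 on vector and 7.70 on untreated), and P3h2 was lower there than on the array labelled Mical2 (5.31 against 6.59). Serpinh1, the collagen chaperone HSP47, read 13.41 on the untreated array, 12.49 on the vector array, 13.03 on the array labelled Mical2 and 12.71 on that labelled Mical3, under 2-fold.

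Among 11 genes of procollagen cleavage and cross-linking, 8 of them at the floor, Lox, lysyl oxidase, and Tgm2, a transglutaminase, were called lower on the vector than on the untreated array, Lox at 11.70 against 12.72 and Tgm2 at 5.75 against 6.79. Pcolce2, an enhancer of procollagen C-proteinase, was the 1 gene called on the array labelled Mical2, as higher (11.86, with 9.47 on vector and 10.15 on untreated). Its relative Pcolce was called lower on the array labelled Mical3 (12.08, with 13.63 and 13.48), and Loxl1 higher (6.69, with 4.88 and 5.48). Between the hairpin arrays Pcolce, Pcolce2 and Lox were lower on the array labelled Mical3 and Loxl1 higher.

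Of 9 collagen receptor genes, 5 of them at the floor, Itga1 and Itgb1, which pair as an integrin that binds collagen, were lower on the vector array (4.81 and 9.56) than on the untreated array (6.47 and 10.70). Mrc2, an endocytic collagen receptor, was higher there (9.58 against 8.49). On the array labelled Mical3 Ddr2, a receptor kinase for fibrillar collagen, was called lower (8.64, with 9.96 on vector and 9.75 on untreated), as was Mrc2 (7.14), and both were also lower than on the array labelled Mical2. None of the 9 was called on the array labelled Mical2. Of 8 degradation genes, 4 of them at the floor, Mmp2, a gelatinase, was called on the array labelled Mical2, as higher (8.09, with 6.64 and 7.06) and was lower on the array labelled Mical3 than there (6.47). The collagenase gene Mmp13 was higher on the vector array (8.47) than on the untreated array (7.42), and none was called on the array labelled Mical3 against both controls.

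Of 12 partners of collagen fibrils 10 reached the floor. On the vector against the untreated array 5 were called lower and none was called higher, with 2.57% and 3.26% of all genes. Fmod, fibromodulin, stood at 10.63 on the untreated array, 5.89 on the vector array, 8.72 on the array labelled Mical2 and 4.80 on that labelled Mical3. Postn, periostin, stood at 8.92, 5.56, 8.32 and 5.22. Both were high on the untreated and labelled Mical2 arrays and low on the other arrays, as Col3a1 and Col12a1 were. Dcn, decorin, read 12.36, 10.52, 12.27 and 12.79 and so, like Col4a1, was lowest on the vector and highest on the array labelled Mical3. Fn1, fibronectin, and Thbs1, thrombospondin, were the other genes lower on the vector array (12.21 against 13.38, and 9.16 against 10.73). Fmod and Dpt were called lower on the array labelled Mical3 against both controls, and none of the 12 was called on the array labelled Mical2.

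**Figure D5:**
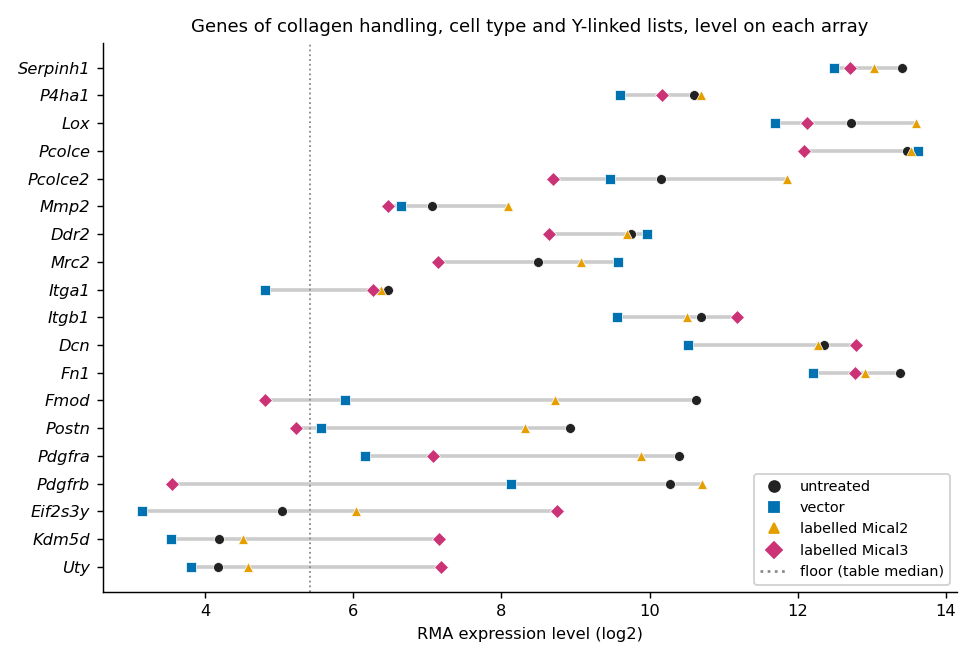
RMA level (log2, horizontal axis) on the 4 arrays for 19 genes of the lists on collagen handling, cell types and Y-linked genes, with a grey bar from the lowest to the highest array and the floor as a dotted line. Fmod and Postn have the vector and labelled Mical3 points on the left, Pdgfrb is at 3.55 on the array labelled Mical3, and the Y-linked genes are highest there.

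Markers of other cell types were read beside the collagen genes. A summed level is set mostly by the brightest genes of its list, so medians are given too. For the array labelled Mical3 minus untreated, the median difference was -0.06 over the fibroblast list. Over the pericyte and smooth muscle list it was 0.075. Of 8 fibroblast markers, 5 of them at the floor, Pdgfra and Dcn were called lower on the vector than on the untreated array. None was called higher, with 2.57% and 3.26% of all genes. Pdgfra stood at 10.40 on the untreated array, 6.16 on the vector array, 9.88 on the array labelled Mical2 and 7.07 on that labelled Mical3. Dpt, which read 6.66, 7.05, 6.13 and 5.01, was the 1 fibroblast marker called against both controls, as lower on the array labelled Mical3. Lum, Fap and Thy1 were below the floor on all 4 arrays. The summed level of the list on the log2 scale was 13.61, 12.33, 13.32 and 13.65 in the same order. Of 8 pericyte and smooth muscle markers, 5 of them at the floor, Pdgfrb stood at 10.28, 8.13, 10.71 and 3.55, the order of Col1a2 apart from the array labelled Mical2, and Tagln at 10.27, 6.47, 11.16 and 13.45. Acta2 read 13.67, 11.61, 13.80 and 14.49, Myh11, Cnn1 and Rgs5 stayed below the floor, and the summed level was 13.94, 11.87, 14.18 and 15.07. Cspg4 read 6.25, 6.28, 6.40 and 6.39, and Des 6.58, 6.74, 6.97 and 6.78. Over this list the median difference of vector minus untreated was -0.05. Pdgfrb, Tagln and Acta2 were called lower on vector than on untreated, and against both controls Tagln was called higher and Pdgfrb lower on the array labelled Mical3.

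Of 5 leukocyte markers, 2 of them at the floor, Cd68 was higher on the vector array (8.0 against 5.93), and Ptprc, Itgam and Adgre1 stayed below the floor. The summed level was 7.38, 8.50, 7.48 and 7.78. Of 4 epithelial markers, 3 of them at the floor, Krt8 (6.42 against 8.27) and Krt18 (4.84 against 5.85) were lower on the vector array, Krt18 was called higher on the array labelled Mical3, Cdh1 stayed below the floor, and the summed level was 9.01, 7.78, 9.14 and 9.31. Of 4 lymphatic markers, 2 of them at the floor, Flt4 was called lower on both hairpin arrays (7.66 and 7.55, with 8.90 on vector and 9.18 on untreated), and Prox1 and Lyve1 stayed below the floor. Pdpn, the other marker at the floor, was not called. It read 12.29 on untreated, 12.50 on vector, 11.67 on the array labelled Mical2 and 12.47 on that labelled Mical3. The summed level was 12.46, 12.62, 11.77 and 12.53 in that order. None of the 12 endothelial markers was called in any comparison, and their summed level lay between 9.35 and 9.42. For vector minus untreated, the median difference was 0.11 over the leukocyte list and -0.755 over the epithelial list. It was 0.125 over the lymphatic list and 0.025 over the endothelial list. The part of these markers, and of the Y-linked genes, in the differences of the collagen genes was not tested.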

How the data were processed

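Total RNA of SVEC4-10 cells was measured on 4 biotin-labelled expression arrays, 1 each for 4 groups taken from the labels, each a pool of 3 biological replicates per the labels. The authors deposited log2 levels with 2 decimals, made with RMA, per the submitters' processing notes. For RMA's version and settings, the sources used here give nothing. They were used without further scaling. Of 45101 probe sets, 34945 have 1 gene symbol in the platform annotation, and 34741 of those were matched to a RefSeq gene table by Entrez identifier. The probe set with the highest mean represented each of 18193 genes, and 12166 genes reached the floor somewhere. The files name no genome build; coordinates are those of RefSeq GRCm38.p6 sequences.

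RMA compresses levels near background and so understates differences of dim genes. The number of arrays limits the precision. Collagen genes reaching the floor on at least 1 array are named with all 4 levels. From the 13 other lists, members called in 1 of the 4 comparisons or with the largest differences are named. Summed levels are log2 of the sum of linear levels over a list. Members and lists were chosen with earlier results of these data known. Lists share Dcn, Lum, Dpt and Fap. The rule of size was also run on simulated levels, with changes set only in genes well above the floor. That run leaves calls of dim genes unchecked. Alternatives changed the control, fold, floor, probe set, normalization and a constant of 16 added on the linear scale. Python 3.11.15, numpy 2.4.6, pandas 2.3.3, statsmodels 0.14.6 and matplotlib 3.10.9 were used.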

Additional observations from a re-analysis of the deposited data

How the results depend on the processing

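No paired analysis was possible because each group has 1 array. The choice of control moved the counts most. For the array labelled Mical2, 3 collagen genes were called against both controls, 13 against the vector array alone, 5 against the untreated array alone, 7 against the mean of both controls and 1 with the floor at the 75th percentile. For the array labelled Mical3, 2 were called against both controls, 6 against the vector array alone, 8 against the untreated array alone, 8 against their mean and 4 at a fold of 1.5. For the vector against the untreated array 12 were called, and 6 at a fold of 3. The other 37 counts of called collagen genes lay within 1.5 times the count given, and no called collagen value was reversed in the alternatives run. Averaging probe sets lost Col5a3 and Col12a1, 16 added on the linear scale lost Col5a3, and dropping those open to cross-hybridisation lost Col6a2. Over all genes, 329 were called for the array labelled Mical2, with 979 at a fold of 1.5, 112 at 3, 206 with the higher floor, 218 with the mean of probe sets, 1286 against vector alone and 632 against the mean control. For the array labelled Mical3, 465 were called, with 1323 at a fold of 1.5, 163 at 3, 1402 against vector alone and 862 against the mean control. For vector against untreated, 691 became 2084 at a fold of 1.5, 195 at 3 and 446 with the higher floor, and between the hairpin arrays 898 became 2287, 375 and 579. A looser or stricter rule moves a count by construction, and other causes were not tested. Signal over background limits Col5a3, Col6a3, Col8a1, Col8a2 and Col22a1, each below the floor on at least 1 array, and the 17 genes below it on all. With 1 pooled array per group, differences between cultures and between treatments cannot be told apart.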
